A study of Mus musculus with 12 samples.

Results

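Cholesterol synthesis, uptake and efflux were followed through 31 genes, found by their gene names among the 54532 genes counted in each liver library. They were taken apart by role: 19 genes of synthesis (8 of the mevalonate steps, 11 of the squalene and sterol steps), 6 of uptake and intracellular transfer, 2 of esterification and 4 of efflux. All 31 were present in all 12 libraries, with 10 to 22612 counts a library, and all 31 had enough counts to be tested in every comparison.

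The liver makes cholesterol from acetyl-CoA. The mevalonate steps build isoprenoid units, squalene is then assembled and closed into lanosterol, and a further series of enzymes trims lanosterol to cholesterol. When sterol in the membranes of the endoplasmic reticulum is low, the product of Srebf2 is escorted by the product of Scap, freed from the retaining products of Insig1 and Insig2, cleaved, and turns on the genes of synthesis and uptake. When sterol is plentiful, oxysterols activate the liver X receptors, products of Nr1h2 and Nr1h3, which turn on Abca1, Abcg1, Abcg5, Abcg8 and Mylip. Surplus cholesterol is stored as cholesteryl ester, passed to high-density lipoprotein or secreted into bile.

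Male mice with floxed PPARγ alleles were injected at 8 weeks of age with AAV8 that carried either Cre recombinase (PPARγ-KO) or eGFP (wild-type littermates), in each case under the thyroxine-binding globulin promoter, which is active in hepatocytes. All mice then received the fast-food diet (FFD), with 21% fat and 34% sucrose by weight and 0.2% cholesterol, and drinking water with glucose and fructose, for 2 or 5 months. Wild-type mice thus carried the floxed alleles and a virus too, and no group on another diet was analysed here. RNA came from whole liver, so other cells of the liver, which the promoter does not address, contribute to every value. Each genotype had 3 libraries at each time, and the labels do not say that each came from its own mouse, so p-values measure the spread between these samples, which may be technical.

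The libraries held 16367775 to 27452284 counts, of which the 31 genes took 0.249% to 0.359%. Levels are given as normalized CPM, counts scaled to the library size after adjustment by edgeR's TMM factors, and changes as log2 fold changes from edgeR's quasi-likelihood test, where a gene is said to rise or fall if its Benjamini-Hochberg adjusted p over all genes tested is under 0.05. Pparg, the targeted gene, was not lower in the libraries labelled PPARγ-KO: it averaged 39.3 ± 1.92 CPM in wild-type and 56.3 ± 8.85 in PPARγ-KO at 2 months, and 38.5 ± 2.54 and 84.9 ± 9.06 at 5 months (SD, n = 3 each). The edgeR log2 fold changes were 0.52 (SE 0.107, adjusted p = 0.0309) and 1.15 (SE 0.0847, adjusted p = 2.57e-06). The counts are per gene and do not separate the floxed exons, so every direction below follows the labels of the libraries. The 8 hepatocyte markers examined, among them Alb and Ttr, had counts in every group and summed to 58901 to 89193 CPM. Wild-type replicate 1 at 2 months stood apart from its group in several genes (Abcg5 had 326 CPM there against 173 and 223), and results that rest on it are given with and without it.

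Start-site sequences show what the genes of synthesis share apart from their function. RefSeq windows on GRCm38.p6, from 250 bases before to 50 after a transcription start, were at hand for 23 of the 31 genes. The sterol regulatory element, searched as TCACNCCAC on both strands, was in 1.24% of all 32851 windows and in those of 1 gene here, Hmgcs1. The NF-Y box CCAAT, which reads as ATTGG on the other strand, was in 37.4% of all windows, in 42.7% of the 10396 genes with a window that were tested at 5 months, and in 21 of these 23 genes, 15 of 16 in synthesis and 6 of 7 in the other roles, Abca1 and Acat2 being those without it. Neither the DR4 element of the liver X receptors nor the DR1 element of the PPARs was found in the windows of these genes by their consensus letters, which 0.0152% and 0.0396% of all windows held. Shown here, 5′ to 3′ on the strand of the gene and ending at the base before the start, are the stretch of Hmgcs1 that holds its sterol regulatory element (chr13:119690184-119690350, plus strand) and 100 bases each of Mvd (chr8:122443423-122443522, minus), Nsdhl (chrX:72918421-72918520, plus), Mvk (chr5:114444169-114444268, plus), Sc5d (chr9:42264301-42264400, minus) and Ebp (chrX:8193513-8193612, minus), the other synthesis genes with a single window and no annotated exon in those bases. Capitals mark the sterol regulatory element and the NF-Y boxes.
Hmgcs1: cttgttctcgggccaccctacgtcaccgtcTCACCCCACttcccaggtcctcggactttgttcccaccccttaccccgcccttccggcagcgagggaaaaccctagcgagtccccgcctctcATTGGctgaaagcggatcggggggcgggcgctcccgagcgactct
Mvd: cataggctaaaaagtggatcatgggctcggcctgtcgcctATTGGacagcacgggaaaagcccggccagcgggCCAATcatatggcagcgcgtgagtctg
Nsdhl: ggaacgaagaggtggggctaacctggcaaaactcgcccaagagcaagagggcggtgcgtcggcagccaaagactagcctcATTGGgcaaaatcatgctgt
Mvk: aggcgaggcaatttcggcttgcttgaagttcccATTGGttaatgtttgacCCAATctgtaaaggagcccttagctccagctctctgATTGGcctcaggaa
Sc5d: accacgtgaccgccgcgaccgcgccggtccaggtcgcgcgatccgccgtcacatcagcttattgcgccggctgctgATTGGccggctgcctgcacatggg
Ebp: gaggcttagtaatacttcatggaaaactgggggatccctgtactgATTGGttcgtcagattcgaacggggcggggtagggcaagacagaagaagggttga
Mvd, with boxes in each direction, and Nsdhl, with a single box in the stretch shown, were among the genes of synthesis that differed most at 5 months, while Ebp, which also has a box, was not called. A match is a description of the letters and not of a bound site. Abcg5 and Abcg8, both counted above, share a box that lies in both windows.

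The genes sat at very different levels. Per kilobase of the deposited gene length and averaged over the 12 libraries, Sc5d, a late sterol desaturase, was highest at 121 CPM per kb, with group means of 93.0 to 147. The biliary exporters Abcg5 and Abcg8 averaged 82.9 and 62.8, the sterol isomerase Ebp 55.0 and Tmem97, a sterol-responsive membrane protein, 51.7. Their order depended on the group, since Abcg5 ran from 54.9 to 97.8 and Abcg8 from 42.7 to 74.5 over the group means, lowest in PPARγ-KO at 5 months, while Ebp ran from 49.9 to 63.0 and Tmem97 from 47.5 to 55.5. The lowest were Fdps, which makes farnesyl diphosphate, at 0.973, Soat1, the acyltransferase of many tissues, at 1.22, Ggps1 at 2.17 and Sqle, squalene epoxidase, at 2.72, and their order also differed between groups. Soat2, the acyltransferase of hepatocytes and intestine, stood at 23.8. Fdps had only 10 to 302 counts a library and shares 1124 of its 4208 exon bases with Gm43738 on the same strand, which had 0 counts. How reads on shared bases were counted is not given in the sources used here.

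At 5 months, the enzymes of cholesterol synthesis were higher in the PPARγ-KO libraries along nearly the whole pathway. Of the 19 genes, 16 rose and none fell, against 8.90% of all tested genes that rose and 9.51% that fell, and the 3 not called (Sqle, Ggps1 and Ebp) had positive values. The median log2 fold change of the 19 was 0.90 (range 0.053 to 2.10), beside -0.0058 over all genes tested. In 17 of the 19 the PPARγ-KO libraries all lay above the wild-type libraries, as they did in 15.9% of all genes (the reverse held in 19.0%).

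In the mevalonate steps, 7 of 8 genes rose, with a median of 0.57. Mvd, the decarboxylase that makes isopentenyl diphosphate, had 5.34, 5.89 and 6.90 CPM in wild-type and 17.2, 20.9 and 18.2 CPM in PPARγ-KO. The groups lay far apart, and Mvd was 3.12-fold higher (log2 fold change 1.64, SE 0.128, edgeR adjusted p = 4.32e-06). Idi1, the isomerase that follows, had 6.82, 12.1 and 8.67 CPM in wild-type and 16.2, 24.8 and 22.2 in PPARγ-KO, a rise of 1.20 (SE 0.236, edgeR adjusted p = 0.0123). Fdps had 0.593, 1.23 and 1.67 CPM against 3.07, 3.80 and 3.16, a rise of 1.51 (SE 0.309, edgeR adjusted p = 0.0044). The earlier enzymes rose less. Hmgcs1, cytosolic HMG-CoA synthase, went from 132 ± 1.25 to 192 ± 24.7 CPM (SD, n = 3 each), or 0.55 (SE 0.0839, edgeR adjusted p = 6.27e-04). Rises were 0.59 for the kinase Pmvk (SE 0.0964, edgeR adjusted p = 0.00101), 0.46 for the kinase Mvk (SE 0.112, edgeR adjusted p = 0.0118) and 0.30 for the thiolase Acat2 (SE 0.0814, edgeR adjusted p = 0.0219). Ggps1, which leads from the pathway to geranylgeranylated proteins rather than to sterol, was at 9.05 ± 0.811 and 9.32 ± 0.651 CPM and was not called. Of these calls, 3 depended on single libraries: Idi1 was lost without wild-type replicate 3 (edgeR adjusted p = 0.0829), Mvk without wild-type replicate 2 (0.0564), and Acat2, whose close paralog Acat3 had 32412 counts to its 14644, with all 12 libraries in the fit (0.0777) and without wild-type replicate 2 (0.0914) or 3 (0.105) or PPARγ-KO replicate 2 (0.0887) or 3 (0.0588).

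In the squalene and sterol steps, 9 of 11 genes rose, with a median of 0.91. Nsdhl, which removes methyl groups from the sterol nucleus, had 12.0, 11.8 and 12.7 CPM in wild-type and 23.4, 33.2 and 32.6 in PPARγ-KO, a rise of 1.29 (SE 0.130, edgeR adjusted p = 5.27e-05). Tm7sf2, a sterol reductase, had 30.2, 28.1 and 25.2 CPM against 52.5, 66.9 and 63.3, a rise of 1.14 (SE 0.0982, edgeR adjusted p = 1.25e-05). Hsd17b7, the keto reductase that works with Nsdhl, had 26.9, 28.8 and 28.5 CPM against 51.9, 67.8 and 57.2, a rise of 1.08 (SE 0.0936, edgeR adjusted p = 9.50e-06). None of these groups overlapped. Msmo1, the methyl sterol oxidase of the same steps, rose by 0.96 (SE 0.0767, edgeR adjusted p = 4.86e-06), Dhcr7, a terminal reductase, by 0.91 (SE 0.0825, edgeR adjusted p = 1.23e-05), and Cyp51, lanosterol demethylase, by 0.90 (SE 0.0890, edgeR adjusted p = 2.66e-05). Lss, lanosterol synthase, rose by 0.71 (SE 0.0878, edgeR adjusted p = 1.39e-04), and Fdft1, squalene synthase, by 0.62 (SE 0.0772, edgeR adjusted p = 1.44e-04). Fdft1 shares 774 of its 4227 exon bases with the abundant gene Ctsb on the opposite strand, and whether counting used the strand is not stated.

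Sc5d, the most abundant of the enzymes, rose by 0.34 (SE 0.0753, edgeR adjusted p = 0.00763), a call that was lost with all 12 libraries in the fit (0.0616). Sqle, which commits squalene to sterol, had 2.02, 5.95 and 7.63 CPM in wild-type and 16.1, 28.8 and 22.5 CPM in PPARγ-KO. Its groups did not overlap and its log2 fold change of 2.10 (SE 0.503) was the highest of the 19, but it missed the threshold (edgeR adjusted p = 0.0552). Of 13 alternative fits, 4 called it. It passed with all 6 libraries by DESeq2 (2.12, adjusted p = 0.00225), with the replicate number as a block (2.19, edgeR adjusted p = 0.00382) and with only genes of at least 10 counts in every library (0.0485), and also without wild-type replicate 1 (1.73, 0.0228). In the others it was not called, with an edgeR adjusted p of 0.057 with library size alone and of up to 0.177. Sqle is described here although it was not called, a choice made after its values were seen. Ebp was at 122 ± 4.88 and 126 ± 5.87 CPM (SD, n = 3 each), and its groups overlapped.

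**Figure D1:**
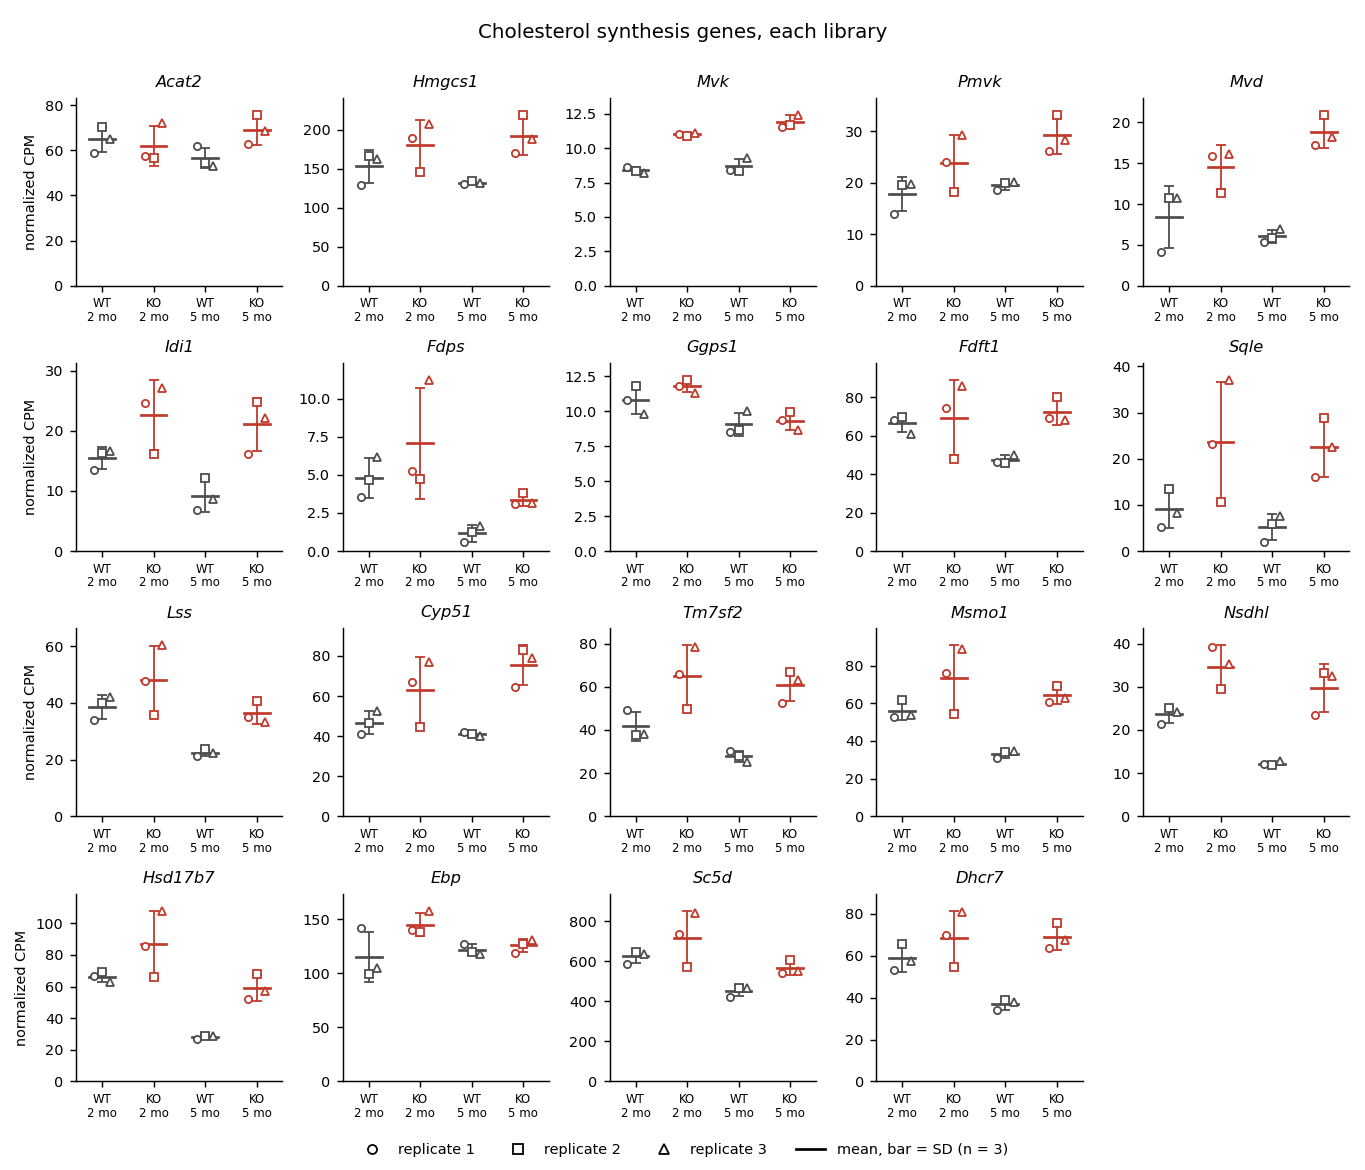
Normalized CPM (vertical axes, from 0, scaled per gene) of the 19 genes of cholesterol synthesis in wild-type (WT, grey) and PPARγ-KO (KO, red) libraries at 2 and 5 months of FFD. Symbols stand for replicates 1 to 3, lines for means and bars for the SD (n = 3). At 5 months the PPARγ-KO libraries lie above the wild-type libraries in 17 of the 19 genes, while at 2 months PPARγ-KO replicate 2 is the lowest of its group in 18 of them.

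At 2 months, the same genes leaned the same way but nearly all fell short of the test. The median log2 fold change of the 19 was 0.39, beside -0.0048 over all genes tested, and 18 of them were above 0. The median was 0.23 without PPARγ-KO replicate 3 and 0.56 without PPARγ-KO replicate 2. Nsdhl alone rose, with 21.4, 25.2 and 24.1 CPM in wild-type and 39.3, 29.4 and 35.2 in PPARγ-KO, a rise of 0.55 (SE 0.116, edgeR adjusted p = 0.0314). It was the 1 of 31 genes called at this time, where 1.78% of all genes rose and 1.78% fell. Its call was lost without wild-type replicate 2 (edgeR adjusted p = 0.0824) or 3 (0.099), without PPARγ-KO replicate 1 (0.123) or 3 (0.0982), and with library size as the only scaling (0.0708). Libraries did not overlap, with PPARγ-KO higher, in 4 of the 19 genes and in 12.1% of all genes (12.0% for PPARγ-KO lower).

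The PPARγ-KO libraries at 2 months differed among themselves along the whole pathway. Replicate 2 was the lowest of its group in 18 of the 19 genes and replicate 3 the highest in 17, and the summed level of the 19 was 1764 CPM in replicate 1, 1380 in replicate 2 and 2038 in replicate 3, against 1364, 1483 and 1443 in wild-type. Sqle shows this spread: it had 23.1, 10.7 and 37.0 CPM in PPARγ-KO and 5.30, 13.5 and 8.33 in wild-type, so that PPARγ-KO replicate 2 lay within the wild-type range. Without that replicate, 6 of the 31 genes were called (Idi1, Cyp51, Tm7sf2, Msmo1, Nsdhl and Hsd17b7, all higher), without wild-type replicate 1 there were 4 (Nsdhl, Ebp at 0.51 with an edgeR adjusted p of 0.00197, Scarb1 and Abcg1), and without any other single library of these 6 there were 0. Over 5000 genes, same-numbered libraries of both genotypes deviated together weakly at 2 months, with correlations of 0.141 to 0.272. The 19 genes did not show this for replicate 2, the highest wild-type library in 11 of them and the lowest PPARγ-KO library in 18. With the replicate number as a block Tm7sf2 (0.62, edgeR adjusted p = 0.0415) and Scarb1 (0.40, 0.0377) also rose and Abcg1 (-0.47, 0.0445) fell.

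The 6 genes of uptake and transfer went in different directions at 5 months, with 2 higher, 2 lower and 2 not called (median log2 fold change 0.13). Among all genes tested, 8.90% rose and 9.51% fell. Stard4, a cytosolic sterol carrier, had 52.7, 49.9 and 48.0 CPM in wild-type and 85.0, 91.4 and 81.5 in PPARγ-KO, a rise of 0.79 (SE 0.0678, edgeR adjusted p = 8.12e-06) that was close in size to those of the sterol enzymes. Npc1, which moves cholesterol out of the lysosome, had 89.7, 91.2 and 89.4 CPM against 109, 108 and 111, and rose by 0.29 (SE 0.0578, edgeR adjusted p = 0.00376). Npc2, its soluble partner in the lysosome, went the other way, with 113, 121 and 127 CPM against 97.9, 89.3 and 99.1 and a fall to 0.801-fold (-0.32, SE 0.0691, edgeR adjusted p = 0.00593). Mylip, a ubiquitin ligase that marks lipoprotein receptors for degradation, had 23.5, 24.6 and 22.4 CPM against 17.2, 18.4 and 19.4, a fall to 0.785-fold (-0.35, SE 0.0858, edgeR adjusted p = 0.0127). The call for Mylip was lost without wild-type replicate 2 (edgeR adjusted p = 0.0685) or PPARγ-KO replicate 1 (0.0557) and with all 12 libraries in the fit (0.186). Tmem97 had 65.3 ± 0.963 and 74.5 ± 5.09 CPM (SD, n = 3 each; 0.20, SE 0.0667, edgeR adjusted p = 0.0529). Of 13 alternative fits 1 called Tmem97, without PPARγ-KO replicate 3 (edgeR adjusted p = 0.049), and the others gave up to 0.184 by edgeR and 0.101 by DESeq2. Scarb1, the receptor for high-density lipoprotein, had 228 ± 12.5 and 237 ± 11.7 CPM (0.066, SE 0.0672, edgeR adjusted p = 0.559).

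None of these 6 was called by edgeR at 2 months, although Scarb1 and Tmem97 had an unadjusted p under 0.05 and Scarb1 was called by DESeq2. Scarb1 had 210, 160 and 159 CPM in wild-type and 235, 227 and 232 in PPARγ-KO, so that its groups did not overlap (0.39, SE 0.107, edgeR adjusted p = 0.0788). Without wild-type replicate 1, which was the highest of its group, the value was 0.54 (edgeR adjusted p = 4.45e-04). For the others the log2 fold changes at 2 months were 0.27 for Stard4 (SE 0.130, edgeR adjusted p = 0.3), -0.16 for Tmem97 (SE 0.0707, 0.244), -0.10 for Npc2 (SE 0.0917, 0.603), -0.05 for Npc1 (SE 0.0978, 0.838) and -0.034 for Mylip (SE 0.210, 0.955).

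Of the acyltransferases that esterify cholesterol, Soat1 fell at 5 months and Soat2 was not called. Soat1 had 13.8, 17.7 and 19.0 CPM in wild-type and 10.3, 10.8 and 9.98 in PPARγ-KO, a fall to 0.621-fold (-0.69, SE 0.126, edgeR adjusted p = 0.00214). All wild-type libraries lay above all PPARγ-KO libraries. Soat2 had 41.7, 55.9 and 54.2 CPM against 51.5, 52.0 and 54.6, with overlapping groups (0.066, SE 0.0999, edgeR adjusted p = 0.71). At 2 months the values were -0.27 for Soat1 (SE 0.180, edgeR adjusted p = 0.463) and -0.12 for Soat2 (SE 0.0864, 0.514).

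All 4 genes of efflux fell at 5 months, at a median of -0.81 on the log2 scale and with no overlap between the groups. Among all genes tested 9.51% fell, and in 19.0% the PPARγ-KO libraries all lay below the wild-type libraries. Abcg1, which passes cholesterol to high-density lipoprotein, had 28.6, 30.5 and 32.6 CPM in wild-type and 14.0, 14.6 and 13.9 in PPARγ-KO. It fell to 0.467-fold (-1.10, SE 0.0845, edgeR adjusted p = 3.75e-06). Abcg5 and Abcg8 encode partner subunits of the transporter that secretes sterols into bile. Abcg5 had 288, 255 and 253 CPM against 143, 157 and 146, a fall to 0.565-fold (-0.82, SE 0.0713, edgeR adjusted p = 8.54e-06). Abcg8 had 316, 263 and 258 CPM against 153, 168 and 160, a fall to 0.578-fold (-0.79, SE 0.0809, edgeR adjusted p = 3.13e-05). The partners fell side by side, with differences of nearly the same size. Abca1, which starts the formation of high-density lipoprotein, fell least, from 284, 284 and 287 CPM to 247, 257 and 218 (-0.23, SE 0.0705, edgeR adjusted p = 0.0354). The call for Abca1 was lost without wild-type replicate 2 (edgeR adjusted p = 0.109) or 3 (0.119) and without PPARγ-KO replicate 1 (0.0639) or 3 (0.164), and with the replicate number as a block (0.0588), which left 3 of the 4 genes called.

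Abcg5 and Abcg8 stand head to head on chromosome 17 and are transcribed away from each other, with 109 bases between their RefSeq starts. In GENCODE vM21 their annotations overlap, and 82 exon bases are shared on opposite strands. The bases between these starts (chr17:84683012-84683120 of GRCm38.p6, plus strand) are shown because the genes moved together, and they held none of the motifs searched.
Abcg5 to Abcg8: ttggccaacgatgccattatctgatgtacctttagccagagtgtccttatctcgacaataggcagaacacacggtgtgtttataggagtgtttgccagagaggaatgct
The NF-Y boxes counted for these genes lie outside this stretch, and the box counted for Abcg5 is also counted for Abcg8.

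At 2 months no gene of efflux was called by edgeR, and 1 of the 4, Abcg1, had an unadjusted p under 0.05 and was called by DESeq2. Abcg1 had 18.8, 23.6 and 17.7 CPM in wild-type and 15.3, 14.4 and 13.5 in PPARγ-KO, and its groups did not overlap (-0.48, SE 0.124, edgeR adjusted p = 0.0662, or 0.0292 without wild-type replicate 1). Abcg5 had 326, 173 and 223 CPM in wild-type and 234, 254 and 247 in PPARγ-KO (0.027, SE 0.224, edgeR adjusted p = 0.965). Wild-type replicate 1 was far above replicate 2, and the PPARγ-KO libraries lay between them. Abcg8 had 327, 172 and 231 CPM against 256, 254 and 269 in the same arrangement (0.094, SE 0.223, edgeR adjusted p = 0.872). Abca1 had 348 ± 19.3 and 327 ± 12.5 CPM (SD, n = 3 each; -0.091, SE 0.0779, edgeR adjusted p = 0.582).

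**Figure D2:**
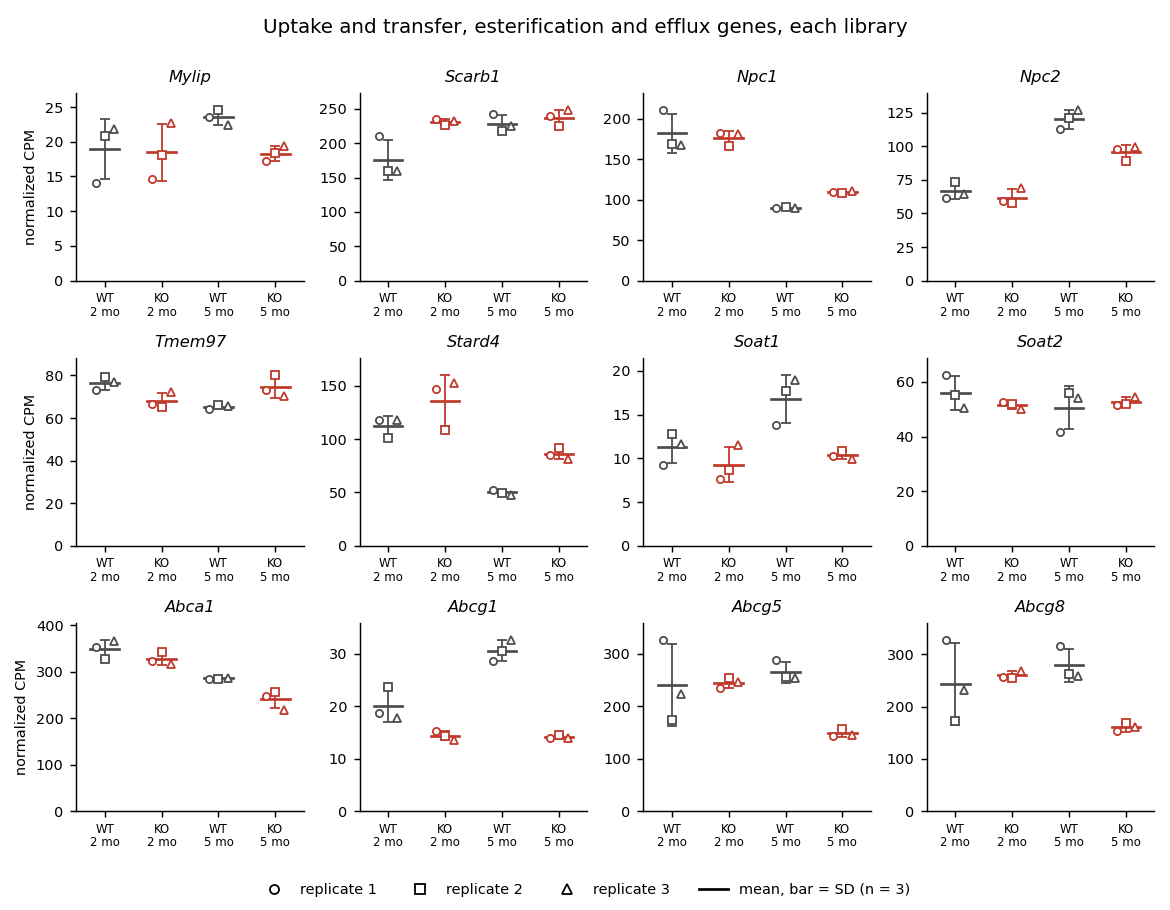
Normalized CPM (vertical axes, from 0, scaled per gene) of the 12 genes of uptake and transfer, esterification and efflux in wild-type (WT, grey) and PPARγ-KO (KO, red) libraries. Symbols stand for replicates 1 to 3, lines for means and bars for the SD (n = 3). At 5 months Abcg1, Abcg5 and Abcg8 lie lower in all PPARγ-KO libraries than in all wild-type libraries and Stard4 lies higher, and at 2 months wild-type replicate 1 is far from its group in Abcg5 and Abcg8.

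**Figure D3:**
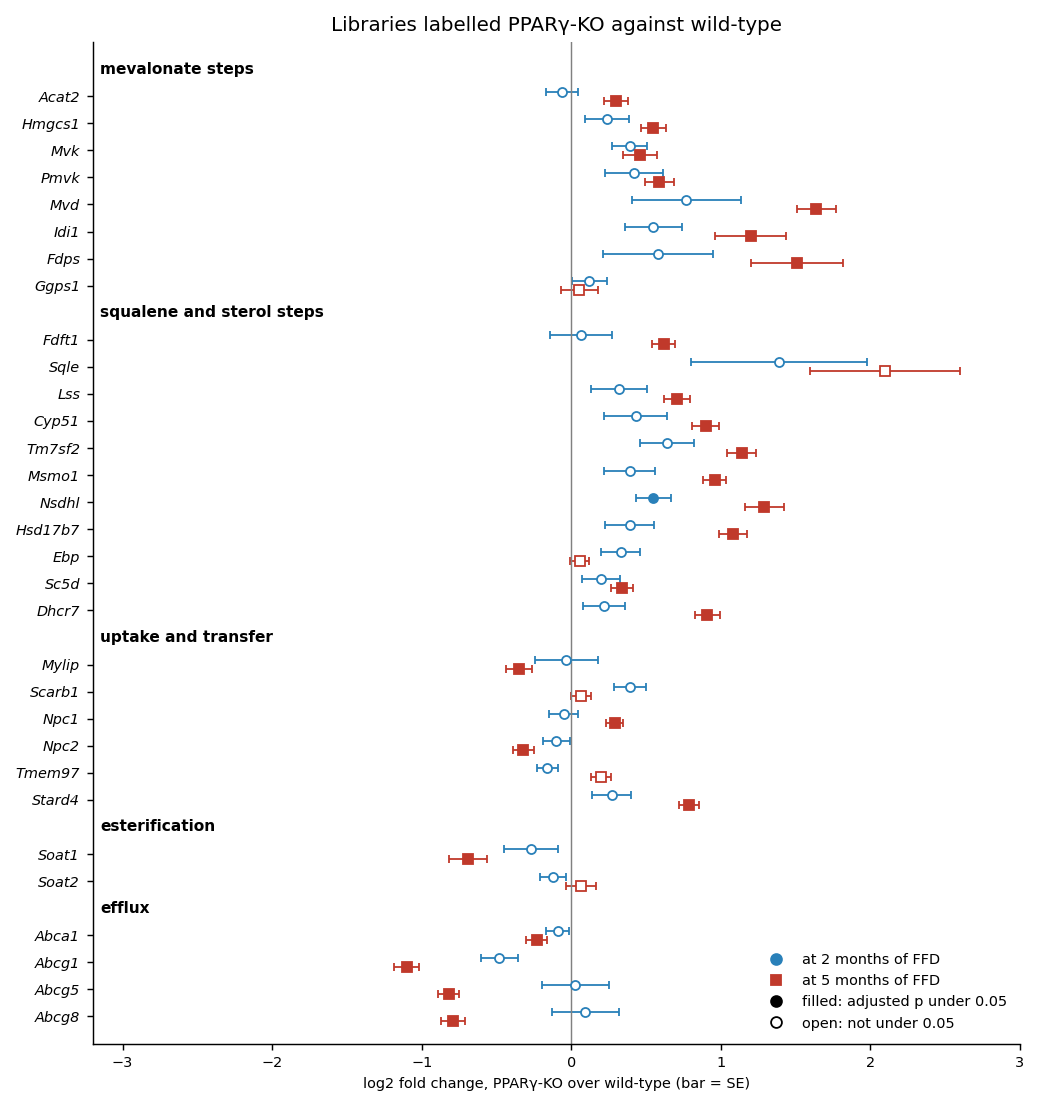
Log2 fold change (horizontal axis, bar = SE derived from the edgeR test) of PPARγ-KO over wild-type libraries for the 31 genes by role. Blue circles stand for 2 months and red squares for 5 months, with filled symbols where the adjusted p is under 0.05. At 5 months the synthesis genes run from 0.053 to 2.10 and the efflux genes from -1.10 to -0.23, and at 2 months Nsdhl is the 1 filled symbol.

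Over time in wild-type mice, transcripts of synthesis fell, mainly in the squalene and sterol steps. From 2 to 5 months of FFD, 10 of the 19 genes fell and none rose, with a median of -0.49, beside -0.013 over all genes tested. Over all 31 genes, 14 fell and 4 rose, where 22.7% of all genes fell and 23.8% rose. Fdps fell from 3.55, 4.64 and 6.19 CPM at 2 months to 0.593, 1.23 and 1.67 (-2.02, SE 0.345, edgeR adjusted p = 8.80e-04). Hsd17b7 fell from 66.4, 69.0 and 62.6 CPM to 26.9, 28.8 and 28.5 (-1.23, SE 0.0739, edgeR adjusted p = 2.28e-06), and Nsdhl from 21.4, 25.2 and 24.1 CPM to 12.0, 11.8 and 12.7 (-0.95, SE 0.102, edgeR adjusted p = 4.25e-05). The other falls in synthesis were smaller: -0.79 for Lss (SE 0.0991, edgeR adjusted p = 1.17e-04), -0.75 for Msmo1 (SE 0.0856, 6.37e-05), -0.75 for Idi1 (SE 0.193, 0.00991), -0.67 for Dhcr7 (SE 0.0925, 2.10e-04), -0.58 for Tm7sf2 (SE 0.118, 0.00253), -0.49 for Fdft1 (SE 0.0783, 5.45e-04) and -0.46 for Sc5d (SE 0.0878, 0.00152). In the squalene and sterol steps 8 of 11 genes fell, and in the mevalonate steps 2 of 8.

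In the other roles, wild-type Stard4 fell from 112 ± 9.84 to 50.2 ± 2.36 CPM (SD, n = 3 each; -1.16, SE 0.0834, edgeR adjusted p = 4.11e-06) and Npc1 from 182 ± 24.4 to 90.1 ± 0.992 (-1.02, SE 0.0973, edgeR adjusted p = 2.04e-05). Npc2 rose from 66.4 ± 5.94 to 120 ± 6.98 CPM (0.85, SE 0.0845, edgeR adjusted p = 2.58e-05), so the lysosomal partners moved in opposite directions over time as they did between genotypes. Abcg1 rose by 0.61 (SE 0.116, edgeR adjusted p = 0.00161), Soat1 by 0.58 (SE 0.155, 0.0109) and Scarb1 by 0.37 (SE 0.112, 0.02), while Abca1 fell by 0.29 (SE 0.0786, 0.0119) and Tmem97 by 0.22 (SE 0.0671, 0.0182). Abcg5 and Abcg8 were not called with all libraries, but without wild-type replicate 1 at 2 months they rose by 0.43 (edgeR adjusted p = 0.00745) and 0.47 (0.0208), Ebp rose by 0.26 (0.013), and Mvd fell by 0.81 (0.0012), Hmgcs1 by 0.32 (0.00262), Cyp51 by 0.27 (0.0141) and Acat2 by 0.26 (0.0216), and 25 rather than 18 of the 31 genes were called. The calls for Scarb1, Tmem97, Soat1 and Abca1 were each lost without at least 1 other library, with edgeR adjusted p of up to 0.0848, 0.0681, 0.0535 and 0.061.

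In the PPARγ-KO libraries, few genes of synthesis were called over the same interval, and which ones depended on the fit. Of the 19 genes, 3 fell, 1 rose and 15 were not called, with a median of -0.095, beside -0.011 over all genes tested. Over all 31 genes, 8 fell and 2 rose, where 22.2% of all genes fell and 22.7% rose. Fdps fell from 5.23, 4.74 and 11.2 CPM to 3.07, 3.80 and 3.16 (-1.10, SE 0.349, edgeR adjusted p = 0.0358), Ggps1 by 0.33 (SE 0.109, 0.0272) and Ebp by 0.21 (SE 0.0678, 0.0244), and Mvd rose by 0.37 (SE 0.137, 0.0489). These 4 calls were weak: each was lost without at least 1 library, with edgeR adjusted p of up to 0.124 for Fdps, 0.0958 for Ggps1, 0.109 for Ebp and 0.168 for Mvd, and 6 of the 31 genes were called without PPARγ-KO replicate 1 at 5 months. Other genes were called in alternatives. Hsd17b7 was lower by DESeq2 (-0.56, adjusted p = 0.00126) and with all 12 libraries (-0.56, edgeR adjusted p = 0.0106), Sc5d likewise (-0.34, 0.0149 and 0.0212), and Lss by DESeq2 (-0.40, 0.0293). Without PPARγ-KO replicate 2 at 2 months, which was low along the pathway, Hsd17b7 (-0.72, edgeR adjusted p = 0.00488), Lss (-0.58, 0.00368), Sc5d (-0.48, 0.00106) and Msmo1 (-0.37, 0.00685) were called lower, and without replicate 3 at 2 months Pmvk (0.46, 0.0291) and Acat2 (0.27, 0.0272) were called higher. The mean at 5 months in PPARγ-KO was above the mean at 2 months in wild-type in 14 of the 19 genes.

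Genes of efflux fell over time in the PPARγ-KO libraries, with 3 of 4 called, where 22.2% of all genes fell. Abcg5 fell from 234, 254 and 247 CPM to 143, 157 and 146 (-0.72, SE 0.0610, edgeR adjusted p = 6.67e-06), and Abcg8 from 256, 254 and 269 CPM to 153, 168 and 160 (-0.70, SE 0.0592, edgeR adjusted p = 6.67e-06). Abca1 fell from 323, 341 and 316 CPM to 247, 257 and 218 (-0.44, SE 0.0694, edgeR adjusted p = 4.04e-04), and Abcg1 was level at 14.4 ± 0.906 and 14.2 ± 0.358 CPM. Npc1 fell by 0.69 (SE 0.0586, edgeR adjusted p = 6.78e-06) and Stard4 by 0.66 (SE 0.126, 0.00404), and Npc2 rose by 0.62 (SE 0.0781, 8.91e-05), each in the direction it took in wild-type. Time on the diet, age and any difference in how the libraries of each time were made cannot be told apart.

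**Figure D4:**
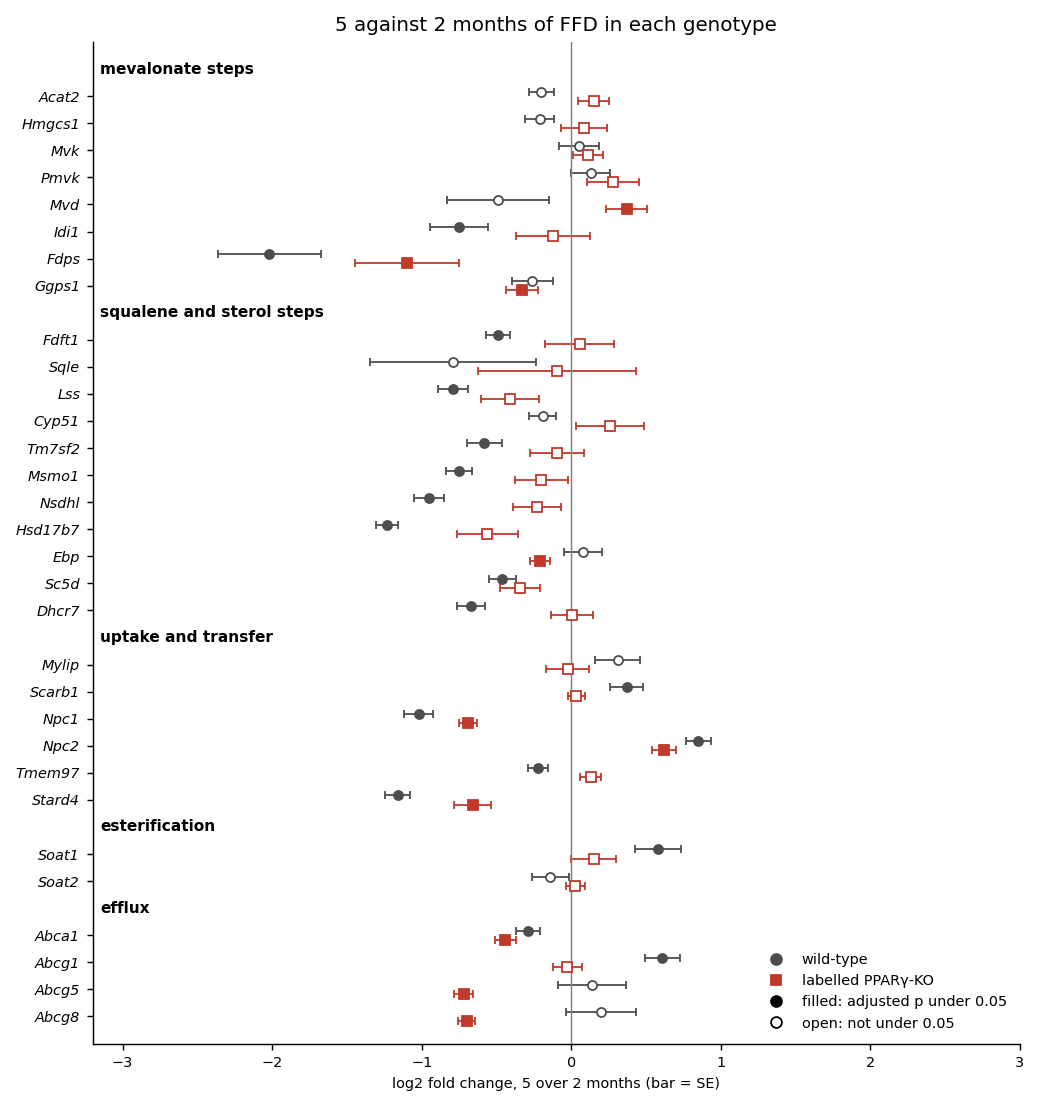
Log2 fold change (horizontal axis, bar = SE derived from the edgeR test) of 5 over 2 months of FFD for the 31 genes by role. Grey circles stand for wild-type and red squares for PPARγ-KO libraries, with filled symbols where the adjusted p is under 0.05. In wild-type 10 synthesis genes are filled on the left, and in PPARγ-KO 3, while Abcg5 and Abcg8 are filled on the left in PPARγ-KO and open in wild-type.

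Whether the difference between genotypes itself differed between the times was tested in a fit of all 12 libraries. This is the same contrast as the difference between the changes over time, so it also compares those. Abcg1 was the 1 gene of 31 that was called: its log2 fold change was lower at 5 than at 2 months by 0.63 (-0.63, SE 0.149, edgeR adjusted p = 0.0453), where 0.661% of all genes were called higher and 0.912% lower. The call was lost under 10 of the alternatives tried, with an adjusted p of 0.0505 to 0.135. No gene of synthesis was called by edgeR. The 19 had a median of 0.49, with 17 above 0, and 6 with an unadjusted edgeR p under 0.05, of which Nsdhl came nearest (0.73, SE 0.187, edgeR adjusted p = 0.0699). By DESeq2, 6 of the 31 were called, and Nsdhl, Dhcr7, Tmem97, Abcg5 and Abcg8 were among them. Shares over all genes were not taken for the unadjusted p or for the alternatives. The count moved with single libraries. Without wild-type replicate 1 at 2 months 9 were called, lower for Abcg5 (-1.14, edgeR adjusted p = 2.64e-04), Abcg8 (-1.16, 0.00118), Abcg1, Scarb1 and Ebp and higher for Mvd (1.19, 0.00462), Nsdhl, Dhcr7 and Tmem97. Without PPARγ-KO replicate 3 at 2 months there were 2 (Hsd17b7 and Dhcr7), without PPARγ-KO replicate 1 at 5 months Nsdhl was the 1 called (0.88, edgeR adjusted p = 0.0132), and without any of PPARγ-KO replicates 1 and 2 and wild-type replicate 3 at 2 months, or replicates 2 and 3 of either genotype at 5 months, there were 0.

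Genes of sterol sensing and transfer, which were not among the 31, were called in both directions at 5 months. Those that fell act in transfer or ester hydrolysis. Of 19 such genes of sensing and transfer, 5 rose and 3 fell at 5 months, where 8.90% of all genes rose and 9.51% fell. Insig1, whose product holds the sensor in the endoplasmic reticulum and which is itself switched on when sterol is low, had 186, 189 and 193 CPM in wild-type and 401, 471 and 406 in PPARγ-KO, a rise of 1.18 (SE 0.0752, edgeR adjusted p = 1.08e-06). Srebf2 rose by 0.34 (SE 0.0853, edgeR adjusted p = 0.0132), Scap by 0.30 (SE 0.0735, 0.0135), Mbtps2, a protease that frees the factor, by 0.39 (SE 0.116, 0.0347) and the sterol-binding Osbp by 0.33 (SE 0.0710, 0.00593). Gramd1b, which moves plasma membrane cholesterol inwards, fell by 0.95 (SE 0.171, edgeR adjusted p = 0.00315), the plasma transfer protein Pltp by 0.52 (SE 0.121, 0.0168) and the ester hydrolase Nceh1 by 0.31 (SE 0.0803, 0.016). Srebf1, Insig2, Mbtps1, Nr1h2 and Nr1h3 were not called between genotypes at either time. At 2 months Gramd1c rose by 0.54 (SE 0.0822, edgeR adjusted p = 0.0102), Nceh1 fell by 0.57 (SE 0.102, 0.0195), and the other 17 were not called. At that time 1.78% of all genes rose and 1.78% fell.

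The branches that leave the mevalonate pathway for dolichol, ubiquinone and protein prenylation were mostly not called. Of 12 such genes, 1 fell at 5 months (Coq2, by 0.25, SE 0.0647, edgeR adjusted p = 0.0184) and none rose, with a median of -0.022, and at 2 months 0 were called. Among all genes, 9.51% fell and 8.90% rose at 5 months. Acat1, the mitochondrial counterpart of Acat2, was not called between genotypes at either time, with 664 ± 3.64 and 685 ± 81.9 CPM at 5 months (SD, n = 3 each).

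Other measures moved with these results. For the counts that follow, 8.90% of all genes tested were higher and 9.51% lower in PPARγ-KO at 5 months. From 2 to 5 months, 23.8% of all genes rose and 22.7% fell in wild-type, and 22.7% rose and 22.2% fell in PPARγ-KO. The 9 markers of Kupffer cells and macrophages, cells in which Abcg1, Soat1 and Npc2 are also active, summed to 493 to 627 CPM in wild-type and 511 to 612 in PPARγ-KO at 2 months, and to 1383 to 1596 and 635 to 874 at 5 months. At 5 months 8 of the 9 were lower in PPARγ-KO, and from 2 to 5 months 8 of 9 rose in wild-type, the directions of Abcg1, Soat1 and Npc2, and none of the 9 was at 0. At 2 months 1 of the 9 was higher in PPARγ-KO and 0 were lower. Over time in PPARγ-KO 3 of the 9 rose and 2 fell, while Npc2 rose and Abcg1 and Soat1 were not called. In whole liver, fewer cells of a type and less RNA per cell cannot be told apart, and the part of these cells in the results was not tested. The 8 hepatocyte markers summed to 61872 to 65313 CPM in wild-type and 75099 to 88242 in PPARγ-KO at 5 months, a sum made up mostly of Alb. Of the 8, 2 were called higher, Alb (36978 ± 2697 to 57105 ± 5261 CPM) and Tat. Cyp3a11 was the 1 called lower (6841 ± 311 to 3036 ± 813 CPM, SD, n = 3 each), and the others were not called. The 16 clock genes, whose transcripts swing over the day as those of sterol synthesis do, summed to 532 to 540 CPM in wild-type and 681 to 737 in PPARγ-KO at 5 months, with 8 of 16 higher and all values above 0, and to 1141 to 1239 and 1240 to 1267 at 2 months. Over time 12 of the 16 fell and 3 rose in wild-type, and 11 fell and 3 rose in PPARγ-KO, and the hour of tissue collection is not given in the sources used here, so its part was not tested. Among other markers, 2 of 5 of lipid-associated macrophages, 3 of 6 of stellate cells and 3 of 5 of endothelial cells were lower in PPARγ-KO at 5 months. Of 8 genes of the glucocorticoid response, 6 rose and 1 fell at 5 months, with Fkbp5 going from 16.6 ± 0.679 to 96.2 ± 14.3 CPM (SD, n = 3 each), and its part was not tested.

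**Figure D5:**
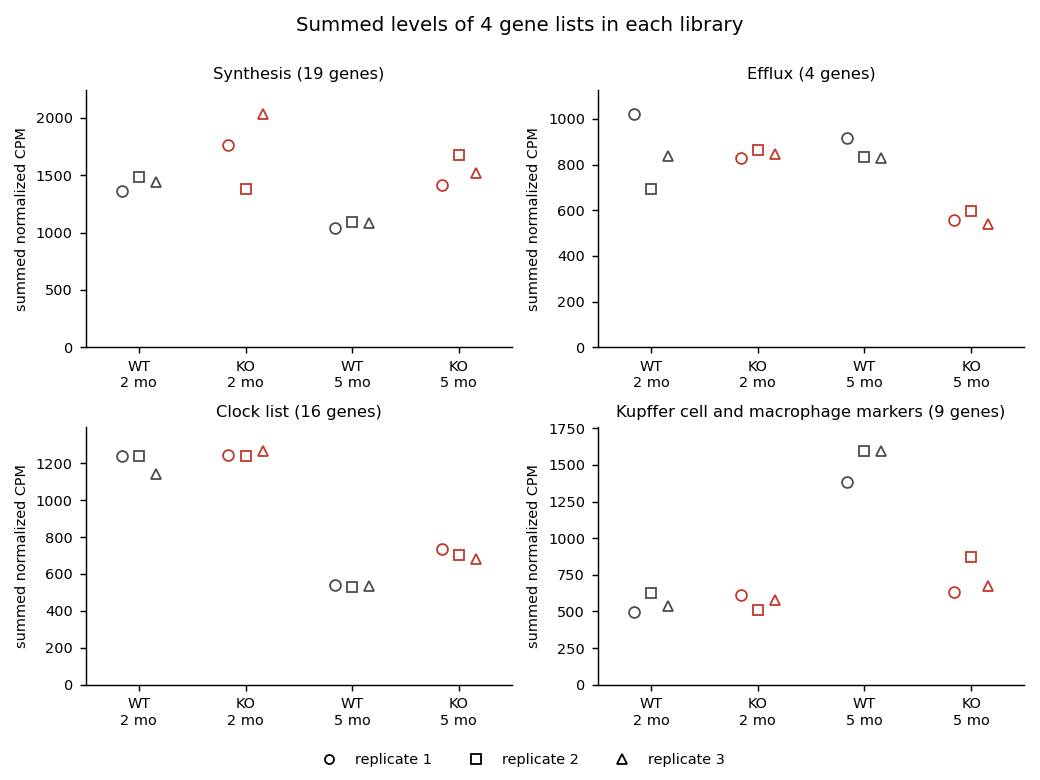
Summed normalized CPM (vertical axes, from 0) of the 19 synthesis genes, the 4 efflux genes, the 16 clock genes and the 9 Kupffer cell and macrophage markers in each library of wild-type (WT, grey) and PPARγ-KO (KO, red) at 2 and 5 months of FFD, with symbols for replicates 1 to 3. At 5 months synthesis and clock sums are higher in every PPARγ-KO library than in every wild-type library, and efflux and macrophage sums are lower.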

How the data were processed

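Whole-liver RNA of 12 libraries was sequenced and the authors deposited 1 table of raw counts per gene for each library, on mouse build mm10. The study's methods name STAR as the aligner, the submitters' processing notes name HISAT2, and the counter, its annotation and its use of strand are not given in the sources used here. The 31 genes and all gene lists were chosen with earlier results of these data known, so counts over them are descriptions.

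Each comparison was fitted on its own 6 libraries, and the difference between the times on all 12, with edgeR 4.0.16 in R 4.3.3 (filterByExpr, TMM, robust quasi-likelihood F-test) over all genes that passed the filter, with Benjamini-Hochberg adjustment and a threshold of 0.05. CPM used TMM factors over the 12 libraries. SEs of edgeR values were derived, as the size of the log2 fold change over the square root of its F statistic. Totals were 16367775 to 27452284 counts, and low levels such as those of Fdps are the least precise. The scripts were tested on simulated data. Fold changes are given for genes that passed, and between genotypes for all genes of uptake, esterification and efflux; Sqle at 5 months and calls found only in an alternative were named after their values were seen. Alternatives were DESeq2 1.42.0, other scalings and filters, all 12 libraries, an unadjusted threshold with a fold of 1.3, a replicate block and leaving out each library. Shares of all genes called are given for the main fits alone.

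Whether equal replicate numbers pair the libraries was checked on 5000 genes: deviations of same-numbered libraries correlated at 0.194, 0.272 and 0.141 between genotypes at 2 months, and at -0.0675, -0.0542 and -0.182 at 5 months. Promoter windows came from RefSeq on GRCm38.p6, the assembly of mm10, and exon overlaps from GENCODE vM21.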

Additional observations from a re-analysis of the deposited data

Results flagged for a closer look

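Abcg1 was flagged because the difference between genotypes itself differed between the times. Its log2 fold change of PPARγ-KO over wild-type was -0.48 at 2 months and -1.10 at 5 months, and the difference between them was -0.63 (SE 0.149, edgeR adjusted p = 0.0453). The wild-type libraries went from 20.1 ± 3.15 to 30.6 ± 1.98 CPM and the PPARγ-KO libraries from 14.4 ± 0.906 to 14.2 ± 0.358 (SD, n = 3 each). Over the alternatives the difference stayed below 0 but was no longer called in 10 of them. The summed markers of Kupffer cells and macrophages also rose in wild-type, from 493 to 627 CPM at 2 months to 1383 to 1596 at 5 months. In PPARγ-KO the summed markers were 511 to 612 CPM at 2 months and 635 to 874 at 5 months. Their part in the result was not tested.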

How the results depend on the processing

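At 2 months the count of the 31 genes called between genotypes, 1, was 0 with library size alone, 4 with DESeq2, 11 with no filter, 5 with all 12 libraries, 7 with an unadjusted p and 1.3-fold, and 0 to 6 on leaving out a library. With the replicate number as a block it was 4 at 2 months, and 25 at 5 months, 19 and 9 over time in wild-type and PPARγ-KO and 1 for the difference between the times. The count at 5 months, 25, was 20 to 26 over all alternatives (21 to 26 on leaving out a library). Over time it was 14 to 25 in wild-type and 6 to 12 in PPARγ-KO on leaving out a library. For the difference between the times it was 0 with library size alone, 6 with DESeq2, 6 with no filter, 9 with the unadjusted threshold and 0 to 9 on leaving out a library. On leaving out a library, medians ranged from 0.20 to 0.49 for the mevalonate steps and 0.23 to 0.56 for the squalene and sterol steps at 2 months, from -0.059 to 0.06 for uptake and -0.028 to 0.45 for efflux over time in wild-type, from -0.061 to 0.10 for uptake and -0.25 to 0.069 for synthesis over time in PPARγ-KO, and from 0.34 to 0.72 for the squalene and sterol steps in the difference between the times. Of the 155 pairs of a gene and a comparison, 25 changed sign under at least 1 alternative, and 0 of these were called. Among the genes whose values are given above whatever their p, these were, at 2 months, on leaving out a library, Mylip (-0.21 to 0.11), Npc1 (-0.11 to 0.068), Abcg5 (-0.16 to 0.31, and -0.039 with library size alone) and Abcg8 (-0.11 to 0.37), and at 5 months Soat2 (-0.055 to 0.14, and -0.0044 with library size alone). Over all 31 genes, 5 comparisons and alternatives, 2170 values in all, 65 lost and 82 gained a call. The shares of all genes called under these alternatives are not given, so the counts cannot be set against them. The cause of these changes was not tested.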

Other observations

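Genes of sterol sensing that are not among the 31 moved over time in both genotypes. Insig2, whose product retains the sterol sensor, rose by 1.01 on the log2 scale from 2 to 5 months in wild-type (edgeR adjusted p = 1.53e-05) and by 0.88 in PPARγ-KO (edgeR adjusted p = 9.17e-05). Srebf1, which drives fatty acid synthesis, fell by 0.59 (edgeR adjusted p = 0.00234) and by 0.92 (edgeR adjusted p = 0.0114). Insig1 fell by 0.72 in wild-type (edgeR adjusted p = 2.02e-04) and had a value of -0.039 in PPARγ-KO (edgeR adjusted p = 0.841), and the difference between these changes missed the threshold (0.68, SE 0.172, edgeR adjusted p = 0.0686).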
